A study of Homo sapiens with 12 samples.

Results

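The genes of the classical cadherins *CDH1* and *CDH2* and of the catenins *CTNNA1*, *CTNNB1* and *CTNND1* were chosen by symbol from the 10976 genes with deposited values, and all 5 were present in every library. RNA of cerebral organoids (COs), 3D cultures that form neural tissue from stem cells without guidance to a brain region, was sequenced after differentiation for 12 or 24 days. The COs came from H1, an established line of human embryonic stem cells that carried no edit (WT), and from its 2 clones KO#2 and KO#10, in which *c-JUN* was knocked out with CRISPR-Cas9. Each line had 2 libraries per day, 12 in all, and each library pooled RNA of 3 to 4 organoids. KO below stands for the 4 libraries labelled KO#2 or KO#10 on a day, which come from 2 clones and not from 4 independent edits. The study states that its experiments used several batches, and the sources used here do not tie the 2 libraries of a line and day to separate cultures.

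Classical cadherins are transmembrane proteins that bind cadherins of the same kind on the neighboring cell and so form adherens junctions. Inside the cell, β-catenin and p120-catenin bind the cadherin tail, and α-catenin links β-catenin to actin. β-Catenin also acts in the nucleus as the transcriptional partner of TCF/LEF factors in WNT signaling. Pluripotent stem cells and simple epithelia use mainly E-cadherin, the product of *CDH1*, whereas the early neuroepithelium turns to N-cadherin, the product of *CDH2*.

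The deposited values are whole-number scores per gene. All 12 libraries shared a median of 17 and a highest value of 5585, and their totals of 473637 to 483149 reflect that scaling, which leaves the sequencing depth unknown and allows no counting interval. The clones were checked by *JUN*, whose day 12 values were 4 and 8 in WT and 13 to 19 in the libraries labelled KO, with 13 and 15 against 29 to 39 at day 24. The transcript score of the targeted gene was therefore not lower in the libraries labelled KO, and the directions below rest on the labels. A score of the whole gene does not show whether an edit removes the protein. The study reports that the clones lacked c-JUN protein by western blot and *c-JUN* transcript by RT-qPCR, the latter also in COs. The *JUN* scores here do not show that lack of transcript, and those assays were not analysed here. Since whole organoids were measured, fewer cells of a type and less RNA per cell cannot be told apart.

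Upstream sequence is shown for 1 window of *CDH2*. It was printed because it overlaps no annotated untranslated region, as the other 6 windows described here do. A RefSeq table (GRCh38.p14) held windows of 250 bases before a transcription start for 3 of the 5 members (7 windows for *CDH2*, *CTNNA1* and *CTNNB1*), and *CDH1* and *CTNND1* had no entry. Each window was searched on both strands for 4 motifs. These were a loose AP-1 pattern TGANTCA, the CRE site TGACGTCA, the E-box CAGGTG and the TCF/LEF site TCAAAG. In the loose pattern N is any base and not only the C or G of the usual AP-1 site of JUN dimers. The 4 motifs occurred in 6.57%, 1.65%, 17.5% and 11.2% of all 35116 windows of that length. The window before the inner start of *CDH2* lies at chr18:28036642-28036891 on the minus strand inside the *CDH2* interval and overlaps no annotated exon in GENCODE 29. It held 1 match to the loose AP-1 pattern, with A at N and so not the usual site. The match starts 102 bases before the start site and is in capitals:
CDH2 inner start: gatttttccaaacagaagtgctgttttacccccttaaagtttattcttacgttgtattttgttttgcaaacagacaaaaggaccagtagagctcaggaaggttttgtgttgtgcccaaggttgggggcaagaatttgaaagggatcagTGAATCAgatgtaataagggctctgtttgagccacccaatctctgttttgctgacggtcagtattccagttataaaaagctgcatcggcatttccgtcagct
The window before the outer start of *CDH2* held none of the 4 motifs, and neither did the window of *CTNNB1*. Of the 4 windows of *CTNNA1*, 1 held the CRE letters 21 bases and the TCF/LEF letters 210 bases before the start, and another held the TCF/LEF letters 232 and 40 bases before it. These windows overlap, and the match at 210 bases in the former is the match at 40 bases in the latter. The GC content was 42% in the printed window and 66% before the outer start of *CDH2*. A match describes the letters of the window and not a bound site, and the files do not tell which start was used.

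*CDH1* (ENSG00000039068, chromosome 16, 68737292 to 68835537, plus strand) encodes E-cadherin. At day 12 it was listed at 26 and 28 in WT, against 7 and 13 for KO#2 and 6 and 10 for KO#10. At day 24 it was listed at 31 and 55 in WT, against 2 and 1 for KO#2 and 5 and 2 for KO#10. All 4 KO libraries lay below both WT libraries on each day, and the gap was wider at day 24.

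*CDH2* (ENSG00000170558, chromosome 18, 27932879 to 28177946, minus strand) encodes N-cadherin. Its day 12 values were 99 and 167 in WT, against 243 and 472 for KO#2 and 219 and 426 for KO#10. Its day 24 values were 95 and 44 in WT, against 290 and 472 for KO#2 and 266 and 369 for KO#10. Both WT values lay below every KO value on each day, the opposite order to *CDH1*. In all 3 lines at day 12 the library numbered 2 had the higher value.

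**Figure D1:**
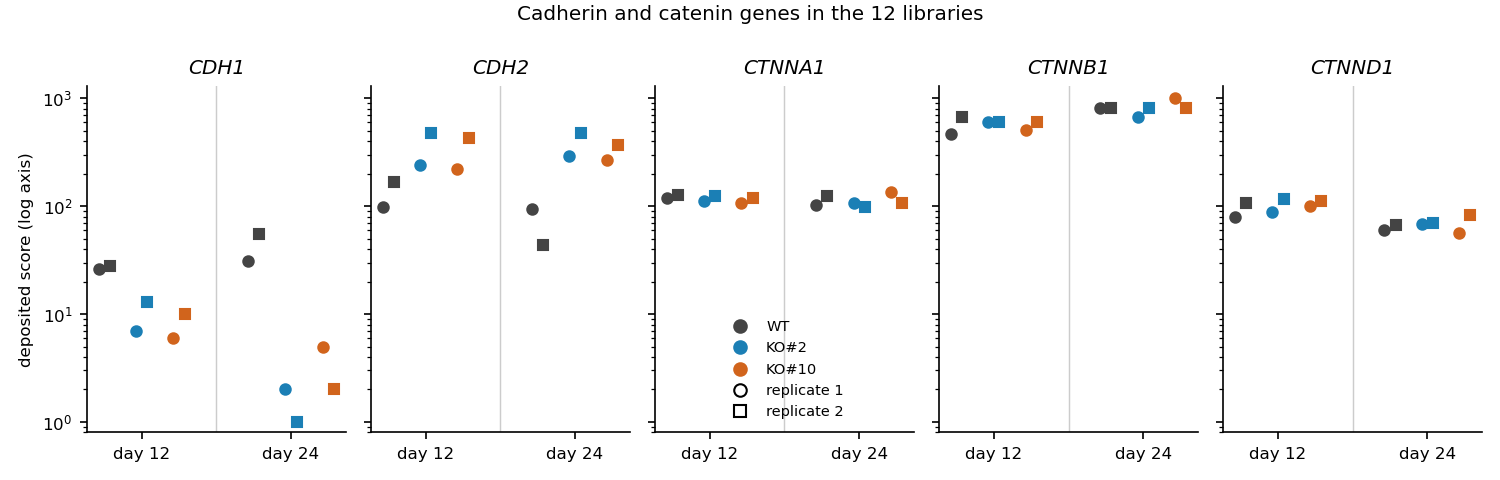
Deposited scores (log axis) of the 5 genes in each of the 12 libraries, by day, line (color) and replicate number (circle or square). The KO libraries lie below WT for *CDH1* (1 to 5 against 31 and 55 at day 24) and above WT for *CDH2* (266 to 472 against 44 and 95), while the points of the 3 catenin genes overlap between WT and KO.

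At day 12, the mean value of *CDH1* was 27.0 ± 1.41 in the WT libraries (SD, n = 2) and 9.0 ± 3.16 in the KO libraries (SD, n = 4), 3.00-fold lower. The groups did not overlap for 2 of the 5 members, *CDH1* and *CDH2*, and did not overlap in either direction for 16.6% of all genes tested. On the log2(value + 1) scale, the difference of *CDH1* was -1.54 (SE 0.28, 95% interval -2.17 to -0.90), and limma's Benjamini-Hochberg adjusted *p* over all genes was 0.107. *CDH2* averaged 133.0 ± 48.1 in WT and 340.0 ± 128 in KO, 2.56-fold higher, with a log2 difference of 1.32 (SE 0.36, 95% interval 0.49 to 2.14) and an adjusted *p* of 0.221. Calls required an adjusted *p* under 0.05 together with a change of at least 2-fold, and 0 of 5 members were called, as were 0.0900% of all genes tested (8 of 8885, and 980 at an unadjusted *p* under 0.05). Before adjustment, limma's *p* was 0.000498 for *CDH1* and 0.00616 for *CDH2*. Same-numbered libraries shared their deviations at day 12, and with the replicate number as a block 2 members were called, *CDH1* (adjusted *p* = 0.0229) and *CDH2* (adjusted *p* = 0.00719), beside 0.799% of all genes. The block left both fold changes as they were.

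At day 24, the group mean of *CDH1* was 17.2-fold lower and that of *CDH2* 5.03-fold higher in KO than in WT. *CDH1* averaged 43.0 ± 16.97 in the WT libraries (SD, n = 2) and 2.50 ± 1.73 in the KO libraries (SD, n = 4), and its log2 difference was -3.71 (SE 0.47, 95% interval -4.83 to -2.60, adjusted *p* = 0.0181). *CDH2* averaged 69.5 ± 36.1 in WT and 349.25 ± 92.9 in KO, with a log2 difference of 2.38 (SE 0.34, 95% interval 1.57 to 3.19, adjusted *p* = 0.0196). These were the 2 members called out of 5, while 8.01% of all genes tested were called, 4.22% higher and 3.79% lower. The same 2 genes did not overlap between the groups, which at this day held for 44.0% of all genes. *CDH1* passed the filter on low values (at least 10 in at least 2 libraries) only through the WT libraries, so that a difference was built into its being tested at day 24, and with values of 1 to 5 its log2 change depends on the added 1. Leaving out 1 library ended the call of *CDH1* without KO#2 replicate 2 (adjusted *p* = 0.0665) or KO#10 replicate 2 (0.0676), and left it untested without either WT library. The call of *CDH2* ended without the same KO libraries (0.0665 and 0.0695) and without WT replicate 1 (2.92, adjusted *p* = 0.0504) or WT replicate 2 (1.83, adjusted *p* = 0.231).

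**Figure D2:**
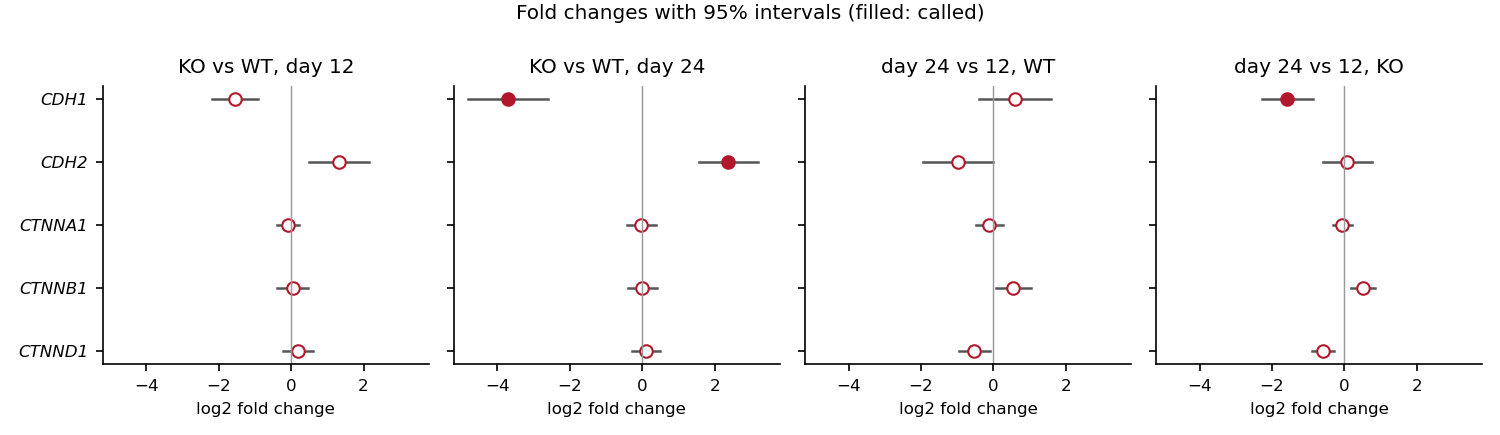
Log2 fold changes of the 5 genes (points) with 95% intervals (lines) from limma in 4 comparisons, with filled points for called genes. *CDH1* and *CDH2* are called in opposite directions at day 24 (-3.71 and 2.38), and *CDH1* is called lower at day 24 than at day 12 in KO (-1.58).

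Each clone was also set against the same 2 WT libraries, which the clone comparisons share. At day 24, the log2 difference of *CDH1* was -4.11 for KO#2 (adjusted *p* = 0.0301) and -3.32 for KO#10 (adjusted *p* = 0.0806). That of *CDH2* was 2.50 for KO#2 (adjusted *p* = 0.0353) and 2.26 for KO#10 (adjusted *p* = 0.0959). Thus 2 members were called in KO#2, where 9.00% of all genes were, and 0 in KO#10, where 0.280% were (26 genes, with 2255 at an unadjusted *p* under 0.05). The clones were compared directly, and the difference of KO#2 from KO#10 was -0.79 for *CDH1* (95% interval -1.998 to 0.41) and 0.24 for *CDH2* (95% interval -0.81 to 1.29). No gene was called between the clones by limma (0%), with 479 genes at an unadjusted *p* under 0.05 at day 24 and 115 at day 12. At day 12, the differences from WT were -1.40 in KO#2 and -1.67 in KO#10 for *CDH1*, and 1.39 and 1.24 for *CDH2*, and 0 members were called in either clone (0.0113% of all genes in each).

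Time was compared within each genotype in a fit of all 12 libraries. In KO, *CDH1* fell by 1.58 on the log2 scale from day 12 to day 24 (SE 0.32, adjusted *p* = 0.00280), the 1 member called there beside 11.5% of all genes. In WT, the change of *CDH1* was 0.60 (95% interval -0.39 to 1.59, adjusted *p* = 0.339). *CDH2* differed between days by 0.08 in KO (95% interval -0.60 to 0.76) and by -0.98 in WT (95% interval -1.94 to -0.02, adjusted *p* = 0.113). None of the 5 members was called in WT, where 15.1% of all genes were (4200 genes at an unadjusted *p* under 0.05).

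Whether the KO to WT difference itself changed between the days was tested as an interaction. It changed by -2.18 for *CDH1* (SE 0.56, 95% interval -3.39 to -0.96, adjusted *p* = 0.0695) and by 1.06 for *CDH2* (SE 0.54, 95% interval -0.12 to 2.24, adjusted *p* = 0.280). Neither was called, and 1.31% of all genes were (130 of 9952, with 2136 at an unadjusted *p* under 0.05). Without KO#10 replicate 1 of day 24, the library that stood apart in marker genes as described below, the value for *CDH1* was -2.48 with an adjusted *p* of 0.00666. It was not called in the 11 other fits that left out 1 library, and over all 12 the values ran from -2.58 to -1.77 and the adjusted *p* reached 0.330.

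Ordered by the mean of the 2 libraries of a line and day, *CDH1* ran from WT at day 24 (43.0) over WT at day 12 (27.0), KO#2 at day 12 (10), KO#10 at day 12 (8) and KO#10 at day 24 (3.50) to KO#2 at day 24 (1.5). The libraries of KO#2 and KO#10 overlapped at day 12 and met at a value of 2 at day 24, so that the clones did not separate beyond their spread on either day, and the WT days differed by less than the test resolves (adjusted *p* = 0.339). For *CDH2*, the 4 KO groups had means of 317.5 to 381.0 and overlapping libraries, followed by WT at day 12 (133.0) and WT at day 24 (69.5). The WT days, at 99 and 167 against 95 and 44, were not called apart for *CDH2* either (limma adjusted *p* = 0.113).

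The ratio of *CDH1* to *CDH2* was taken in each library as log2((*CDH1* + 1)/(*CDH2* + 1)). It compares libraries and is not a ratio of molecules, since transcript length was not taken into account. At day 12 it was -1.89 and -2.53 in WT, against -4.93 and -5.08 for KO#2 and -4.97 and -5.28 for KO#10. At day 24 it was -1.58 and 0.32 in WT, against -6.60 and -7.89 for KO#2 and -5.48 and -6.95 for KO#10. The KO libraries lay close together at day 12 and lower and farther apart at day 24, and the groups did not overlap on either day.

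The KO mean of this ratio was lower than the WT mean by a log2 difference of -2.85 at day 12 and -6.09 at day 24. The two-sided exact permutation test gave *p* = 0.0667 on each day, the smallest that 2 against 4 libraries allow, so that the design could not reach the threshold. In KO the ratio was lower at day 24 than at day 12 in 4 of 4 libraries, by -1.66 (exact permutation *p* = 0.0286, the smallest that 4 against 4 allow). This test treated the 4 libraries of a day as independent, although they come from 2 clones. In WT the difference was 1.58 with an exact permutation *p* of 0.333, the smallest that 2 against 2 allow. As plain quotients, the *CDH2* score was 3.81 and 5.96 times the *CDH1* score in WT at day 12, 34.7 to 42.6 times in KO, 3.06 and 0.80 times in WT at day 24, and 53.2 to 472 times in KO.

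**Figure D3:**
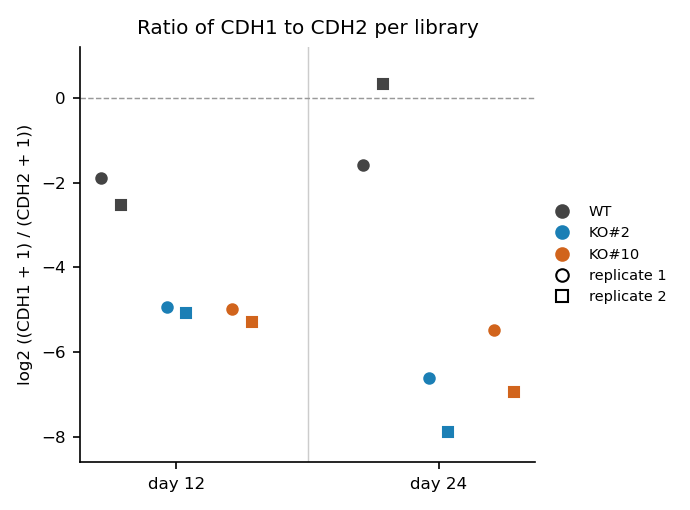
Log2 ratio of *CDH1* to *CDH2* in each of the 12 libraries, by day, line (color) and replicate number (circle or square), with a dashed line at equal scores. At day 12 the KO libraries run from -5.28 to -4.93, and at day 24 they span -7.89 to -5.48, below the WT libraries of the same day.

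Among the catenins, *CTNNA1* (ENSG00000044115, chromosome 5, 138610967 to 138935034, plus strand) encodes αE-catenin, the link to actin. At day 12 it was listed at 118 and 126 in WT, against 112 and 124 for KO#2 and 108 and 118 for KO#10. At day 24 it was listed at 102 and 124 in WT, against 106 and 98 for KO#2 and 136 and 106 for KO#10. WT and KO overlapped on both days. The KO to WT difference was -0.08 at day 12 (95% interval -0.39 to 0.23) and -0.02 at day 24 (95% interval -0.42 to 0.38), so that both intervals exclude a 2-fold change. The change between days was -0.12 in WT and -0.06 in KO.

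*CTNNB1* (ENSG00000168036, chromosome 3, 41194741 to 41260096, plus strand) encodes β-catenin, the cadherin partner that also signals. Its day 12 values were 469 and 664 in WT, against 600 and 600 for KO#2 and 504 and 600 for KO#10. Its day 24 values were 819 and 819 in WT, against 664 and 819 for KO#2 and 1006 and 819 for KO#10. Only 6 distinct values occurred in the 12 libraries, because the libraries share a common ladder of scores, which is coarse for a gene ranked between 39 and 115 from the top. The KO to WT difference was 0.04 at day 12 (95% interval -0.38 to 0.47) and -0.0015 at day 24 (95% interval -0.40 to 0.40). Between days the log2 change was 0.55 in WT (adjusted *p* = 0.0788) and 0.51 in KO (95% interval 0.17 to 0.85, adjusted *p* = 0.0233), the latter past the *p* threshold and under 2-fold.

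*CTNND1* (ENSG00000198561, chromosome 11, 57753243 to 57819546, plus strand) encodes p120-catenin, which keeps cadherins at the membrane. It was listed at 79 and 106 in WT, against 88 and 116 for KO#2 and 101 and 112 for KO#10 at day 12. At day 24 the values were 60 and 67 in WT, against 68 and 70 for KO#2 and 57 and 82 for KO#10. Every day 24 value but the 82 of KO#10 lay below all day 12 values, and WT and KO overlapped on both days. The KO to WT difference was 0.18 at day 12 (95% interval -0.23 to 0.59) and 0.11 at day 24 (95% interval -0.28 to 0.50). Between days it was -0.52 in WT (adjusted *p* = 0.0695) and -0.59 in KO (95% interval -0.90 to -0.28, adjusted *p* = 0.00730), again past the *p* threshold and under 2-fold. The interaction of the catenin genes ran from -0.06 to 0.06, with unadjusted limma *p*-values of 0.796 to 0.877.

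Other genes share the intervals of the members. In GENCODE 29, *CTNNA1* holds the coding gene *LRRTM2* on the opposite strand, *CTNNB1* overlaps *ULK4* on the opposite strand, and *CTNND1* shares its strand with the readthrough gene TMX2-CTNND1. Reads from overlapping genes may be split between them in ways the values do not show, since no source used here says whether counting used the strand. The intervals of the catenin genes in the files equal those of GENCODE 29, and those of *CDH1* and *CDH2* overlap them with other ends.

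Of the other classical cadherins, 10 of 16 had values. At day 24 all 10 were tested, and 1 was called higher and 1 lower, beside 4.22% and 3.79% of all genes. Their median log2 difference was 0.59 against 0.0063 over all genes. Of the 10, 4 were tested only through KO libraries, so that the filter favored a higher median. *CDH3*, which encodes P-cadherin and ends 14608 bases before *CDH1* on chromosome 16 with no annotated gene between, had 26 and 34 in WT, against 3 to 10 in KO, and fell by 2.50 on the log2 scale (adjusted *p* = 0.0224). At day 12 its difference was -0.50 (adjusted *p* = 0.579) and the groups overlapped. *CDH20*, a type II cadherin, had 5 and 2 in WT, against 9 to 18 in KO, and rose by 1.81 (adjusted *p* = 0.0285). *CDH3* reached the filter limit of 10 in both WT libraries and in KO#10 replicate 1. *CDH20* passed only through KO libraries, so that its direction was fixed by its being tested.

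Among atypical cadherins, the genes called at day 24 were all higher in KO. Of 29 such genes, 19 had values and 17 were tested, and 5 were called higher and 0 lower, beside 4.22% and 3.79% of all genes, with a median of 0.95. Of the 17 tested, 6 passed the filter only through KO libraries and 1 only through WT libraries, which favored a higher median. Among the 5 called, *CDH23*, *DCHS1* and *PCDH9* passed only through KO libraries, so that their direction was fixed by their being tested. Those called were *FAT4* (2.36) and *DCHS1* (1.73), which encode a receptor and its ligand in planar polarity, *PCDH9* (1.28), a protocadherin of neurons, *CDH23* (1.15) and *CLSTN3* (1.05), a calsyntenin of synapses. *FAT4* was listed at 11 and 7 in WT, against 43 and 80 for KO#2 and 18 and 94 for KO#10. At day 12, 0 of the 14 tested were called and the median was 0.21.

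Of 7 other catenin genes and inhibitors tested at day 24, 3 had higher and 4 lower values in KO, and 1 was called, beside 8.01% of all genes. It was *CTNND2*, which encodes the neural δ-catenin, at 10 and 5 in WT, against 30 and 29 for KO#2 and 22 and 26 for KO#10 (1.76, adjusted *p* = 0.0196). *JUP*, which encodes plakoglobin, a close relative of β-catenin in desmosomes, had a difference of -0.90 (adjusted *p* = 0.0205) and stayed under the 2-fold limit. *CTNNA2*, the neural α-catenin gene, had 0.35 (adjusted *p* = 0.196), and the median of the list was -0.13.

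**Figure D4:**
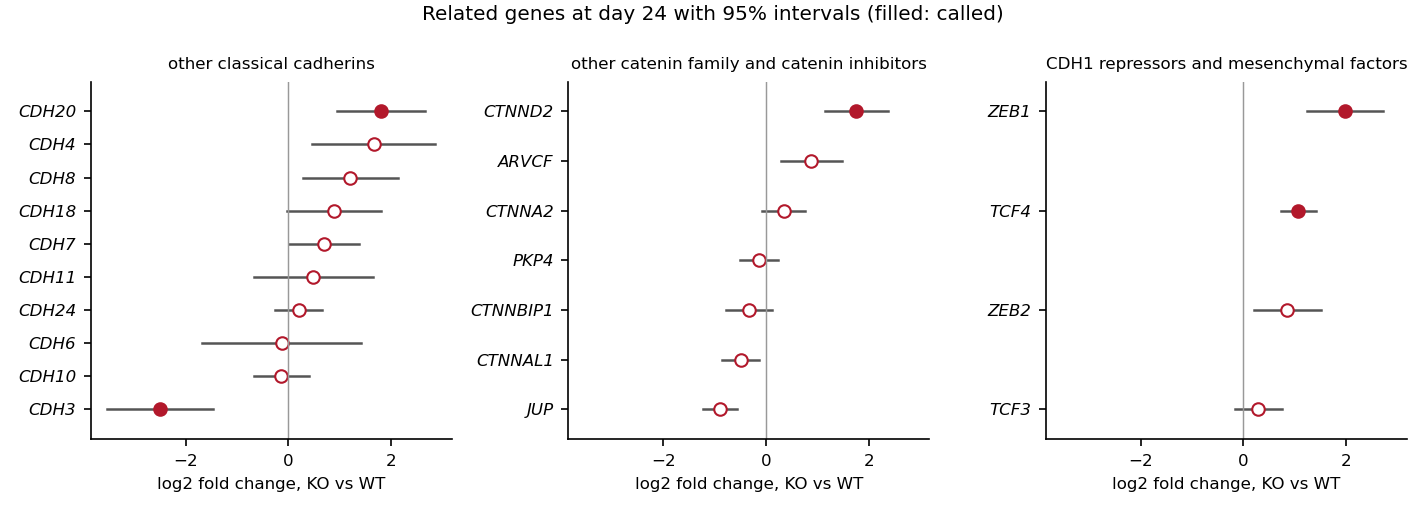
Log2 fold changes (points) with 95% intervals (lines) of KO against WT at day 24 for the tested genes of 3 lists, with filled points for called genes. *CDH3* lies lowest among the classical cadherins at -2.50, and *CTNND2* (1.76), *CDH20* (1.81) and *ZEB1* (1.97) are called higher.

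Genes that act on *CDH1* were listed separately. Of 8 repressors and mesenchymal factors, 5 had values and 4 were tested at day 24. Of the 4 tested, 2 were called higher and 0 lower, beside 4.22% and 3.79% of all genes. The untested repressor gene *SNAI2* had 9 and 9 in WT, against 1 and 1 for KO#2 and 16 and 1 for KO#10. *ZEB1*, a zinc finger repressor of *CDH1*, was listed at 31 and 17 in WT, against 100 and 107 for KO#2 and 62 and 114 for KO#10, and rose by 1.97 (adjusted *p* = 0.0205). At day 12 its values were 26 and 29 in WT and 28 to 38 in KO, with a difference of 0.20 (adjusted *p* = 0.705). Of the 8 lists on cadherins, catenins and their regulators, *ZEB1* was the 1 gene called in the interaction (1.77, adjusted *p* = 0.0384). Of all genes tested there, 1.31% were called. *TCF4*, an E protein, rose by 1.06 at day 24 (adjusted *p* = 0.0184), and *ZEB2* had 0.85 (adjusted *p* = 0.0737).

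Of 12 epithelial factors, 4 were tested at day 24, and 0 were called higher and 2 lower, beside 4.22% and 3.79% of all genes. *ESRP1*, a splicing regulator of epithelial cells, was listed at 18 and 50 in WT, against 0 and 0 for KO#2 and 1 and 0 for KO#10 (limma adjusted *p* = 0.0206). *ELF3*, an epithelial transcription factor, had 10 and 16 in WT, against 1 to 2 in KO, and fell by 2.33 (adjusted *p* = 0.0298). At day 12, *ELF3* was listed at 2 and 4 in WT, against 3 and 14 for KO#2 and 3 and 12 for KO#10, and its difference was 0.95 (adjusted *p* = 0.671). At day 24 *ESRP1* and *ELF3* passed the filter only through WT libraries, so that their tests could only come out lower.

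Partners and regulators of the junction and of β-catenin are given beside the 8.01% of all genes called at day 24. Of the tested adherens junction partners, *SHROOM3*, which drives apical constriction, was called higher (1.28) and *IQGAP1*, a scaffold of actin, lower (-1.11), 2 of 20 in all. Of 12 genes of cadherin processing and turnover, *FURIN*, a protease that matures cadherins, was called lower (-1.18), or 8.33%. Of 19 tested genes of the β-catenin destruction complex and its nuclear partners, 3 (15.8%) were called higher and 0 lower, with a median of 0.37. The filter passed 3 of the 19 only through KO libraries, *APC* among them, which favored a higher median. Those called were *LEF1* (1.80, adjusted *p* = 0.0322), a nuclear partner of β-catenin, *APC* (1.28, adjusted *p* = 0.0196) and *AXIN2* (1.23, adjusted *p* = 0.0474), scaffolds of the destruction complex, *AXIN2* being also a WNT target. *LEF1* was listed at 12 and 14 in WT, against 27 and 60 for KO#2 and 40 and 78 for KO#10. At day 12, 0 genes of these 8 lists were called.

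Marker genes of other cell types differed between the same libraries. Their calls at day 24 stand beside 4.22% of all genes called higher and 3.79% called lower. At day 24 the 7 measured simple epithelium markers *EPCAM*, *KRT8*, *KRT18*, *KRT19*, *CLDN4*, *CLDN6* and *CLDN7* were called lower, of which 4 (*EPCAM* and the claudins) passed the filter only through WT libraries and could only come out lower. The summed scores of the list were 674 and 891 in WT, against 66 and 41 for KO#2 and 253 and 49 for KO#10. The 6 tested pluripotent cell markers *POU5F1*, *TDGF1*, *L1TD1*, *LIN28A*, *DPPA4* and *DNMT3B* were also called lower, the first 3 of them tested only through WT libraries. Their list had sums of 439 and 882 in WT and 38 to 60 in KO, where *TDGF1* or *NANOG* was at 0 in some libraries. Of the 8 neural progenitor markers, 7 were higher and 2 were called (*PAX6* and *SOX1*, the latter tested only through KO libraries). Their sums were 538 and 714 in WT and 983 to 1119 in KO. Of the 8 neuron markers, 8 were higher and 2 were called (*MAP2* and *ELAVL4*), and 3, *ELAVL4* among them, were tested only through KO libraries. The neuron sums were 160 and 304 in WT, 1545 and 1934 for KO#2, and 346 (replicate 1) and 1324 for KO#10. At day 12, 3 of the 6 tested pluripotent cell markers were among the 8 genes called in all, *TDGF1* (-4.01), tested only through WT libraries, *POU5F1* (-2.76) and *DNMT3B* (-1.52), each lower in KO. The day 12 sums were 337 and 349 in WT against 193 to 320 in KO for simple epithelium, 814 and 1032 against 460 to 522 for pluripotent cells, and 547 and 685 against 837 to 1038 for neural progenitors. None of the 8 neural progenitor markers was at 0 in any library. The part of these cell types in the cadherin values was not tested.

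The neuron sum of KO#10 replicate 1 at day 24 was 346, near the 304 of a WT library. The other KO libraries had 1324 to 1934. KO#10 replicate 1 of day 24 also stood apart from them in 2 further lists. Its summed mesenchyme score was 2908, against 139 to 173 in the other KO libraries and 2074 and 2447 in WT, and its endoderm and yolk sac score was 1254, against 33 to 97 and 6909 and 7138. Of 6 tested mesenchyme markers 0 were called, and of 5 endoderm markers 1 was (*TTR*, lower), beside 8.01% of all genes. This library had the highest *CDH1* (5) and the lowest *CDH2* (266) of the 4 KO libraries of that day. Without it, the day 24 differences were -4.01 for *CDH1* (adjusted *p* = 0.00330) and 2.50 for *CDH2* (adjusted *p* = 0.00819).

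The genes whose log2 values ran most like *CDH1* over the 12 libraries were *ESRP1* (Pearson's *r* = 0.9746), *CYP2S1* (0.973), *VASP* (0.969), *EHD4* (0.968) and *NT5DC1* (0.964), out of 9951 genes ranked. Those most like *CDH2* were *FNDC3A* (0.970), *PHC2* (0.969), *H2AZ2* (0.948), *PLEKHG1* (0.941) and *ZBTB5* (0.933). These values describe 12 libraries that share their scaling and fall into groups by line and day. Of the genes most like *CDH1*, *VASP*, an actin regulator, kept values of 11 to 18 in KO at day 24 against 28 and 36 in WT.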

How the data were processed

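Strand-specific libraries of ribosome-depleted total RNA were sequenced from 12 CO samples. The authors deposited 1 column per library of whole-number scores per gene, which are normalized and rounded (equal medians and highest values) and not raw counts. The submitters' notes name bcl2fastq, Bowtie2, RSEM and the mouse build mm10, although samples, gene identifiers and coordinates are human. The normalization is not given in the sources used here. Groups, days and replicate numbers came from the labels.

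Values were tested as log2(value + 1) with limma 3.58.1 (R 4.3.3, trended variance) for genes that reached 10 in 2 or more of the libraries fitted, with Benjamini-Hochberg adjustment over all genes. All 5 members passed in each comparison. *p*-values measure the spread between libraries, which may be technical. Fold changes on this scale understate those of low genes. KO and WT were compared day by day (4 against 2 libraries), clones as 3 groups, and days and the interaction over 12 libraries in 4 groups of genotype and day. The scripts were tested on simulated data.

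The members and gene lists were chosen with earlier results of these data known. Beside the members, the text names genes of the lists on cadherins, catenins and their regulators that were called in KO against WT on either day, at most 8 a list, the 5 genes most correlated with each cadherin gene, and *JUN*. *CTNNA2*, *JUP*, *ZEB2*, *SNAI2* and the marker genes were named after their values were seen. Same-numbered libraries deviated together at day 12 (*r* across genes 0.459, 0.428 and 0.598 for the 3 pairs of lines) and not throughout at day 24 (0.212, -0.106 and 0.346). What a number stands for is not stated. No 2 libraries held identical values. Alternatives were other filters, a pseudocount of 0.1, the replicate block, 1 fit of 12 libraries, separate clones and each library left out. A fit without the trend and one with centred libraries were added after the data were seen. Python 3.11.15, numpy 2.4.6, pandas 2.3.3 and matplotlib 3.10.9 were used.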

Additional observations from a re-analysis of the deposited data

Results flagged for a closer look

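The KO to WT difference of *CDH1* moved by -2.18 on the log2 scale from day 12 to day 24, with an unadjusted limma *p* of 0.00202 and an adjusted *p* of 0.0695, and is listed on the unadjusted value. The value of *CDH1* was lower at day 24 than at day 12 in 4 of 4 KO libraries.

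*CTNNB1* in the 4 KO libraries of day 12 had 1 low value, 504 in KO#10 replicate 1, with the others tied at 600. The gap therefore took up the whole range (a share of 1, above Dixon's limit for 4 values), and such ties arise easily on the shared ladder of scores. About 1 in 20 groups passes this limit by chance.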

How the results depend on the processing

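Of 604 alternative values, 539 were scored as unchanged, and the values included counts of called genes beside log2 differences and ratio tests. A count has no direction or side of the threshold. With other settings the count of all genes called at day 24 ran from 661 to 1022, against 744, and each was scored as unchanged. The ratio tests of KO against WT, and of days in WT, could not reach the threshold. The share unchanged is therefore not a rate of kept directions and calls. The replicate block changed the day 12 calls from 0 to 2 members (*CDH1* and *CDH2*) and left the calls of members in the other comparisons as they were. Under the block, the exact permutation *p* of the ratio of *CDH1* to *CDH2* between days in KO rose to 0.0556 with the same difference of -1.66. That is the smallest *p* that shuffling within replicate numbers allows, so that the rise was fixed by the design.

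Leaving out 1 library gave 0 to 2 members called at day 24 and 0 to 1 in the interaction (*CDH1*, without KO#10 replicate 1 of day 24). The between-day difference of the ratio in KO then ran from -2.08 to -1.28, with *p* from 0.0286 to 0.0571. The number of all genes called ran from 2 (without WT replicate 2) to 1346 (without KO#10 replicate 1) at day 24 against 744, and from 1 to 4 at day 12 against 8.

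Directions turned only for log2 differences near 0, and only when a library was left out. For KO against WT these ran from -0.21 to 0.29 (*CTNNB1*) and -0.032 to 0.39 (*CTNND1*) at day 12, and from -0.16 to 0.12 (*CTNNA1*) and -0.10 to 0.10 (*CTNNB1*) at day 24. Between days they ran from -0.26 to 0.024 for *CTNNA1* in WT and from -0.10 to 0.27 for *CDH2* in KO. For the interaction they ran from -0.084 to 0.20 (*CTNNA1*), -0.29 to 0.21 (*CTNNB1*) and -0.27 to 0.15 (*CTNND1*). The depth of the libraries is unknown, so that values of 1 to 5 carry a counting error that cannot be given.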
